A study of Drosophila melanogaster with 2 samples.

Results

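The miR-2, miR-13, miR-11 and miR-308 miRNAs of Drosophila melanogaster have the same seed, bases 2 to 8 of the mature strand, and so form a seed family. The hairpins were taken by name, 10 of the 174 hairpins listed in the deposited tables. These are mir-2a-1, mir-2a-2, mir-2b-1, mir-2b-2, mir-2c, mir-13a, mir-13b-1, mir-13b-2, mir-11 and mir-308, and each was listed in both libraries. Both libraries came from w[1118] Iso31 flies raised at 24 C, with about 100 animals of both sexes pooled in each. Larval tissue was the ventral ganglion plus optic lobes from third-instar wanderers, without eye imaginal discs. The adult library held brains with their antennal lobes, taken 3 to 5 days after eclosion. There was 1 library per stage, and stage and dissected tissue cannot be told apart.

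A miRNA hairpin is cut into a short duplex, 1 strand of which is loaded into an Argonaute protein while the other is mostly degraded. The loaded strand finds target mRNAs through its seed. In this family the seed lies on the 3p arm (the strand from the 3' side of the hairpin) and pairs with the K box, a short motif of 3' untranslated regions. Known targets of the family in flies include the cell death genes reaper, grim and sickle, which also act in the removal of neuroblasts and neurons from the developing CNS. The 5p arm has another seed and is the partner strand that is usually discarded.

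Hairpin reads numbered 822500 (larval) and 1665159 (adult), so that 1 read stood for 1.22 and 0.601 RPM, reads per 1000000 hairpin reads. Where no read was seen, up to 3 reads are allowed, which is 3.65 RPM in the shallower larval library. All intervals are exact 95% intervals that cover the counting error of reads only, and each difference is one between these libraries. Where a read was counted in several hairpins, the intervals of sums over copies are too narrow. The neuronal marker miR-124 was at 2564 and 1603 RPM. The summed muscle markers miR-1 and miR-133 were at 565 RPM in the larval and 13143 RPM in the adult library, with 2 of 2 higher there and none at 0. The photoreceptor marker miR-210 was at 99.7 and 17586 RPM. What part these tissues have in the results below was not tested. All 3 testis markers together reached 13.4 and 2.40 RPM.

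The 10 hairpins lie at 6 loci, given here in assembly BDGP6. mir-2b-2 (2L, 19570182 to 19570264, minus strand), mir-2a-1 (2L, 19569897 to 19569972) and mir-2a-2 (2L, 19569490 to 19569561) sit within 775 bases in an intron of spi, the gene of the EGF ligand Spitz. mir-2b-1 lies alone (2L, 8258616 to 8258692, minus strand) and overlaps an exon of Btk, a gene of a Tec family tyrosine kinase. mir-2c (3R, 15417744 to 15417845, minus strand), mir-13a (3R, 15417542 to 15417616) and mir-13b-1 (3R, 15417408 to 15417475) sit within 438 bases in an exon of the noncoding RNA CR45911. mir-13b-2 lies in an intron of CCT2, a chaperonin subunit gene (X, 9091230 to 9091299, plus strand). mir-11 lies in an intron of E2f1, the gene of a cell cycle transcription factor (3R, 21622497 to 21622571, minus strand), and mir-308 in an intron of the ribosomal protein gene RpS23 on 2R. Thus the copies of miR-2b and those of miR-13b come from separate loci, while those of miR-2a are neighbours in spi.

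How reads that fit several hairpins were counted bears on every family total. Between copies of a miRNA, counts of shared reads equal to the annotated 3p form were all but identical. They were 139 and 139 for the miR-2a copies, 159 and 160 for miR-2b and 707 and 707 for miR-13b in the larval library. In the adult library they were 157 and 158, 267 and 266, and 1404 and 1403. Over all 11 such sets in the tables, copies of other miRNAs included, the counts differed by 0 in 3 and by 1 in 8. A single sequence counted in full in every copy would give equal counts, and an odd number of reads divided evenly leaves a difference of 1. The 8 sets with a difference of 1 thus go with division and not with a full count in every copy. The deposited tables do not state the rule, so totals are given both ways. Totals as deposited hold if reads were divided. Totals with shared reads counted once would hold if each read was counted in every copy, and are too low if reads were divided.

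As deposited, the family held 31421 larval reads, 3.82% of the library (3.78 to 3.86), and 48969 adult reads, 2.94% (2.92 to 2.97). The family was thus lower in the adult library, at an adult over larval ratio of 0.770 (0.759 to 0.781). With shared reads counted once it held 25095 and 37251 reads, 3.05% and 2.24%, and the ratio was 0.733 (0.722 to 0.745). mir-11 carried much of this difference. Without it the ratio with shared reads counted once was 0.940 (0.915 to 0.966).

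mir-11 supplied the most reads in both libraries, with 53.9% of the family as deposited in the larval (53.3 to 54.4) and 44.3% in the adult library (43.9 to 44.8). With shared reads counted once these shares were 67.4% and 58.3%. The miR-2b copies came next with 23.9% and 30.6% as deposited, followed by the miR-2a copies with 10.6% and 12.1% and the miR-13b copies with 9.29% and 8.42%. mir-2c made up 1.14% and 3.13%, mir-13a 1.07% and 1.19%, and mir-308 0.150% and 0.198%. Of the 3p reads alone, as deposited, mir-11 made up 47.6% and 43.4% and the miR-2b copies 27.3% and 33.5%. The family was therefore mostly miR-11 and miR-2b at both stages, and the share of miR-11 was smaller in the adult library.

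**Figure D1:**
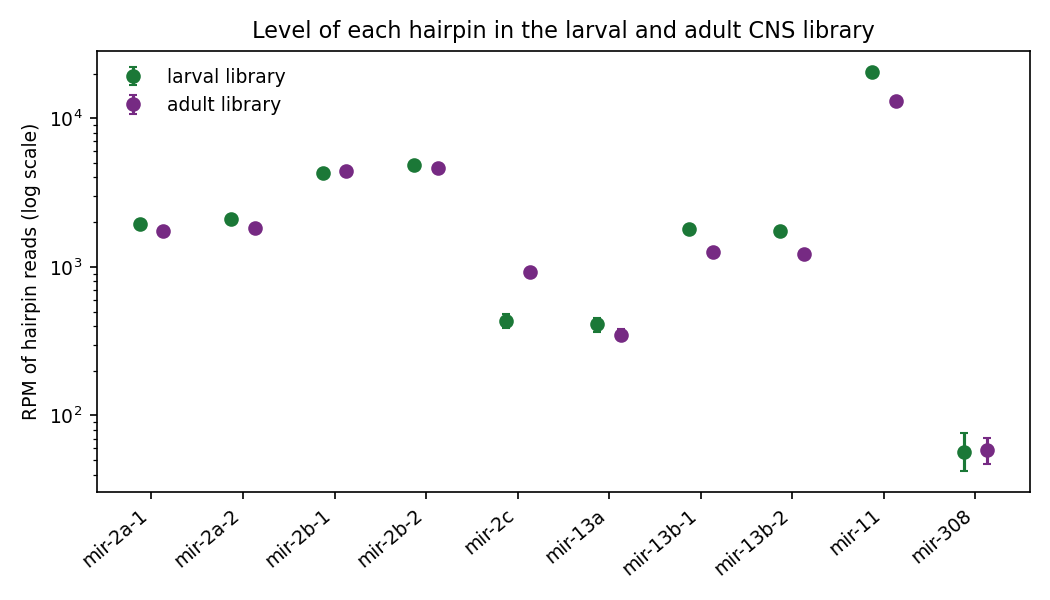
Level of each of the 10 hairpins, as RPM of all hairpin reads on a log scale, in the larval and the adult library (1 library each). Points are deposited totals and bars are exact Poisson 95% intervals. mir-11 stands highest at 20578 and 13033 RPM and mir-308 lowest at 57.1 and 58.3, while mir-2c, at 434 and 919 RPM of reads in and outside the arms, is the 1 hairpin called higher in the adult library.

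The members ranged widely in level and little in ratio. mir-11, which in flies limits the cell death induced by E2F1, had 16925 larval and 21702 adult reads, or 20578 RPM (20269 to 20890) and 13033 RPM (12860 to 13208). It was 1.58-fold higher in the larval library (1.55 to 1.61). Its neighbour in E2f1, mir-998, had 1968 and 587 reads and was 6.79-fold higher in the larval library (6.19 to 7.46), so the ratios of these hairpins of the same intron lay apart. mir-13b-1 had 1793 and 1259 RPM and mir-13b-2 1756 and 1218 RPM, which put them 1.42-fold (1.33 to 1.52) and 1.44-fold (1.35 to 1.54) higher in the larval library. These copies share nearly all reads and are not separate measurements.

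The miR-2a and miR-2b hairpins were close to level between the libraries. mir-2a-1 had 1957 and 1732 RPM and mir-2a-2 2097 and 1839 RPM. The larval values were higher by 1.13-fold (1.06 to 1.20) and 1.14-fold (1.07 to 1.21). mir-2b-1 had 4255 RPM (4116 to 4399) and 4403 RPM (4302 to 4505), and mir-2b-2 had 4864 and 4596 RPM. The interval of the ratio of mir-2b-1, 0.994 to 1.08, held 1. From high to low, the deposited levels of both libraries ran mir-11, mir-2b-2, mir-2b-1, mir-2a-2, mir-2a-1, mir-13b-1, mir-13b-2, mir-2c, mir-13a, mir-308. The intervals of mir-2a-2 and mir-2a-1, and those of mir-13b-1 and mir-13b-2, overlapped in both libraries. Those of mir-2a-1 and mir-13b-1 overlapped in the larval library alone, and those of mir-2b-2 and mir-2b-1 in the adult library alone. Copies of a miRNA share nearly all 3p reads, so these intervals do not rank copies. By 3p reads mir-2b-1, with 3439 larval and 7260 adult reads, stood above mir-2b-2, with 3394 and 7195.

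Among the minor members, mir-2c had 434 RPM (390 to 481) in the larval and 919 RPM (874 to 967) in the adult library. The levels of mir-13a were 410 RPM (367 to 456) and 350 RPM (322 to 380), those of mir-308 57.1 RPM (42.0 to 76.0) and 58.3 RPM (47.2 to 71.1). In the larval library mir-2c and mir-13a were indistinguishable by their intervals, and in the adult library they were not.

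A hairpin was called higher in a library when its RPM there was at least 2-fold that of the other and the interval of the ratio excluded 1. All 10 members passed the floor of 20 reads over both libraries and 10 RPM in either. By this rule 1 of 10 members, mir-2c, was called higher in the adult library, where 40.4% of the 114 hairpins past the floor were. No member was called higher in the larval library, against 24.6% of hairpins. A ratio under 1 whose interval excluded 1 was found in 7 of 10 members and in 40.4% of hairpins. The median log2 ratio of the members, adult over larval, was -0.18, that of all hairpins past the floor 0.47. Scaling to a total lacking the hairpins among the 10 most abundant in a library moved every log2 ratio by -0.52, and 3 members were then called higher in the larval library, mir-13b-1, mir-13b-2 and mir-11. The other hairpins moved by the same amount and their calls under this scaling were not counted, so nothing about the family is read from these 3. mir-2c lost its call under this scaling at a ratio of 1.48, and also with DESeq2 size factors at 1.91. With mature reads alone its ratio was 1.10 (0.920 to 1.32), an interval that holds 1, so the call did not hold without the reads in neither arm. In the authors' deposited table of the comparison, 6 of the 10 members were under 0.05 in the Bonferroni-adjusted Kal's Z-test, as were 54% of its 174 hairpins. That test treats reads as the replicates and compares the libraries.

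Reads of the 3p arm, which carry the seed of the family, made up most of the mature reads. Mature reads here are those the authors placed in an annotated arm. In the larval library 80.9% of the family's mature reads were 3p reads (80.5 to 81.3), in the adult library 92.1% (91.9 to 92.4). For all 164 other hairpins together the 3p share was 77.7% and 86.7%. These pooled shares weigh abundant hairpins most, among them mir-315 with the 5p reads given below. Per hairpin, the median outside the family was 71.4% in the larval library (quartiles 3.13% and 99.2%; 79 hairpins). In the adult library it was 80% (quartiles 5.69% and 99.9%; 91 hairpins). The family held 30479 RPM of larval and 25909 RPM of adult 3p reads as deposited, a ratio of 0.850 (0.837 to 0.863). Its 5p reads were at 7191 and 2212 RPM, 3.25-fold lower in the adult library (3.12 to 3.39). Pooled, the 5p reads of the other hairpins were 1.70-fold lower. mir-315 alone held 97076 of their 172268 larval and 27115 of their 205617 adult reads. Per hairpin past the floor on 5p reads, the median log2 ratio was 0.05 outside the family and -1.81 in it, with limits given below. Within the family the libraries thus differed more on the partner strand than on the seed-bearing one.

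The interval of the 5p ratio lay under 1 in the 8 members past the floor on 5p reads, against 50% of 76 hairpins, with limits given below. Most 5p reads of the family came from mir-11, which had 4975 larval and 2977 adult ones, or 6049 and 1788 RPM. They were 3.38-fold lower in the adult library (3.23 to 3.54), while its 3p reads were 1.29-fold lower (1.26 to 1.32). mir-2b-2 had 583 and 381 5p reads, 3.10-fold lower by RPM (2.72 to 3.53), with 3p reads at a ratio of 1.05 (1.01 to 1.09). mir-2a-1 had 39 and 5 reads of the 5p arm, 15.8-fold lower (6.22 to 51.3), and mir-2b-1 had 36 and 3, 24.3-fold lower (7.68 to 123). The low adult counts fix their direction and little of their size.

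The remaining members had few 5p reads. mir-13b-1 had 18 and 7, 5.21-fold lower by RPM in the adult library (2.07 to 14.7), and mir-308 31 and 17, 3.69-fold lower (1.98 to 7.11). mir-2c had 124 and 139, 1.81-fold lower (1.41 to 2.32), and mir-2a-2 103 and 154, 1.35-fold lower (1.04 to 1.75). mir-13a with 4 and 0 reads and mir-13b-2 with 2 and 1 were under the floor. By the 2-fold rule, 6 of the 8 members past the floor on 5p reads were called higher in the larval library, where 35.5% of 76 hairpins were, and 0 were called higher in the adult library, where 28.9% were. The interval lay under 1 in 8 of 8, against 50% of hairpins. mir-2a-1, mir-2b-1 and mir-13b-1, with 5, 3 and 7 adult reads, passed the floor of 10 RPM through their larval reads alone, so a low ratio was built into their passing and the counts only describe these reads. These reads are unique to their hairpins, so counting of shared reads does not enter.

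**Figure D2:**
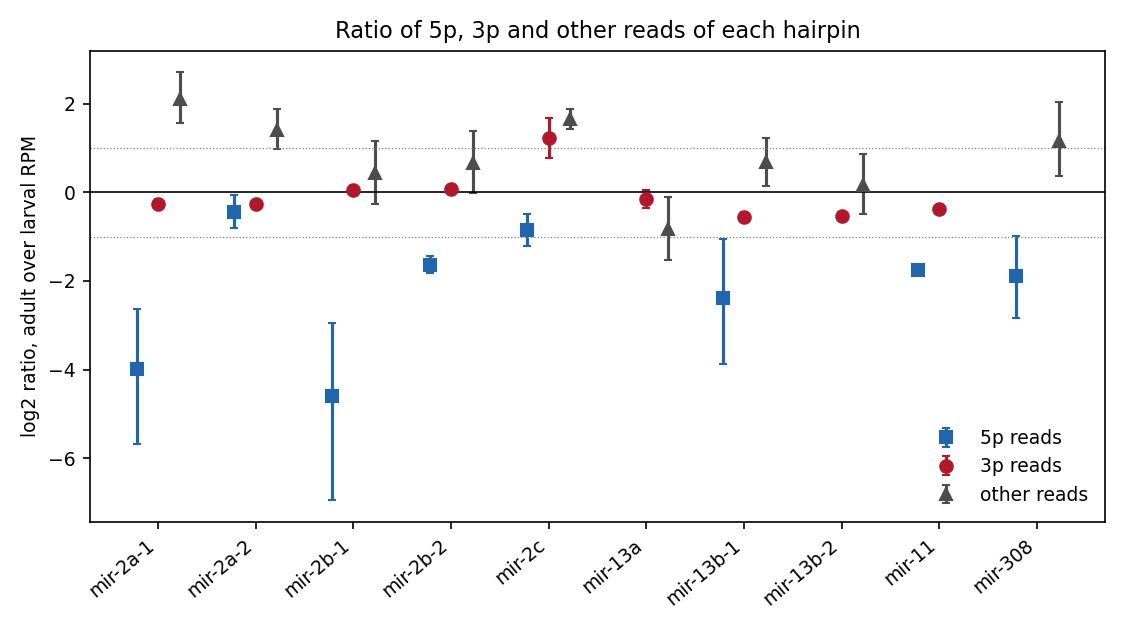
Log2 ratio, adult over larval RPM, of the 5p, 3p and other reads of each hairpin past the floor on that kind of read, with exact 95% counting intervals (1 library per stage). Dotted lines mark a 2-fold difference. The 5p points lie below 0 in all 8 hairpins shown, from 1.35-fold lower for mir-2a-2 to 24.3-fold lower for mir-2b-1, and most 3p points lie near 0.

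Arm by arm, mir-11, mir-2b-2, mir-2a-2 and mir-2c were past 10 RPM on both arms in both libraries, and in each the 5p ratio was below the 3p ratio. It was also lower in mir-2a-1, mir-2b-1 and mir-13b-1, which passed on 5p reads through the larval library alone. The 3p ratios of copies rest on the same shared reads and are not separate measurements. Of the hairpins outside the family, 28 of 49 (57.1%) had the lower ratio on the 5p arm, and nothing is read from the difference in these shares. The 3p share of mir-11 was 70.6% in the larval (69.9 to 71.3) and 86.3% in the adult library (85.8 to 86.7). That of mir-2b-2 was 85.3% (84.2 to 86.4) and 94.97% (94.5 to 95.5). mir-13a, mir-13b-1, mir-13b-2, mir-2a-1 and mir-2b-1 lay between 97.5% and 100% in both libraries, and mir-2a-2 stood at 93.8% and 94.5%. Shares were called different from 10 points upwards where their intervals lay apart. The 3p share was called higher in the adult library in 3 of 10 members, mir-11, mir-2c and mir-308, against 13.2% of 76 hairpins, and lower in 0 against 9.21%.

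**Figure D3:**
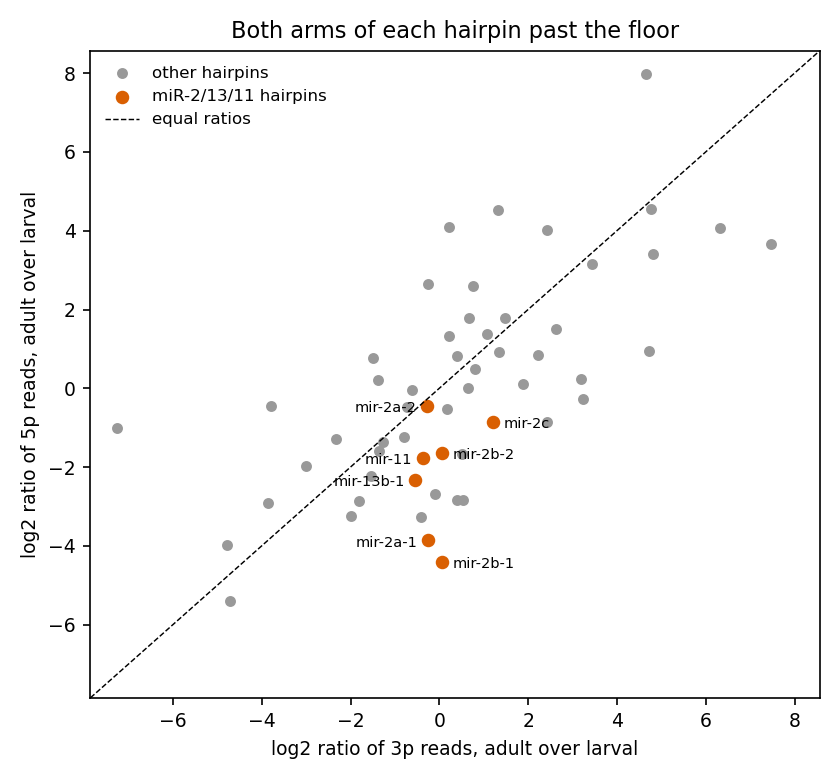
Log2 ratio of 5p reads against that of 3p reads, adult over larval (0.5 reads added), for the hairpins past the floor on both arms. Orange points are the 7 family hairpins, grey points the 49 others, and the dashed line marks equal ratios. All 7 family hairpins lie below the line, 3 of them (mir-2a-1, mir-2b-1 and mir-13b-1) having passed the 5p floor through larval reads alone, and 28 of the 49 others do.

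The arms of mir-2c, the neighbour of mir-13a, differed between the libraries in opposite directions. Its 3p reads numbered 53 larval and 249 adult, 64.4 and 149.5 RPM, a ratio of 2.32 (1.72 to 3.18). Its 5p reads were lower in the adult library, as given above, and the 3p share of its mature reads was 29.9% (23.3 to 37.3) and 64.2% (59.2 to 69.0). Reads of the hairpin in neither arm numbered 180 and 1143, 219 and 686 RPM, at a ratio of 3.14 (2.68 to 3.69), and made up 50.4% (45.1 to 55.7) and 74.7% (72.4 to 76.8) of the hairpin. The 3p arm of mir-2c was called higher in the adult library, 1 of 9 members past the floor on 3p reads, where 41.1% of 90 hairpins were. On this arm 0 of 9 were called higher in the larval library, against 26.7%, and 5 of 9 had an interval under 1, against 37.8%. The ratio of its 3p reads was 1.62 when scaled to the total lacking the most abundant hairpins, short of the 2-fold rule.

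mir-308 had 31 larval and 17 adult reads on the 5p arm, 0 and 8 on the 3p arm, and 16 and 72 in neither. Reads in neither arm were 34.0% (20.9 to 49.3) and 74.2% (64.3 to 82.6) of the hairpin. With mir-2c this makes 2 of 10 members whose share of such reads was called higher in the adult library, against 6.74% of 89 hairpins, and 0 were called lower, against 2.25%. Reads listed in its 3p arm were thus at 0 in the larval library, where up to 3.65 RPM is allowed, and at 4.80 RPM in the adult library. The annotated ends of the arms could not be checked for mir-308 or mir-2c, which had few or no exact 3p reads and many reads in neither arm. Whether reads outside the arms carried the seed is not known, so these values do not give the level of the seed strand.

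Reads in neither arm were also more frequent in the adult library in the miR-2a hairpins. mir-2a-1 had 30 and 263, a ratio of 4.33 (2.96 to 6.55), and mir-2a-2 52 and 281, a ratio of 2.67 (1.98 to 3.66). For mir-2b-1, mir-2b-2, mir-13b-1 and mir-13b-2 the ratios lay between 1.13 and 1.60. mir-13a had 34 and 39 such reads, a ratio of 0.567, and mir-11 only 9 and 10. In all, 4 of the 9 members past the floor on other reads were called higher in the adult library, close to the 44.4% of 63 hairpins, and 0 were called higher in the larval library, against 14.3%. With that reduced total it was 2, mir-2a-1 and mir-2c, and the calls of the other hairpins were not counted.

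Most 3p reads of the copies could not be traced to a locus. Of the 3p reads of the 6 hairpins with a copy, 0.916% were unique to a hairpin in the larval (0.758 to 1.10) and 0.792% in the adult library (0.682 to 0.913). mir-13b-1 and mir-13b-2 had 0 unique 3p reads among 1418 and 1414 larval and 1964 and 1963 adult ones. By contrast all 3p reads of mir-11, mir-13a and mir-2c were unique. Of all the shared reads in the tables, 98.3% of larval and 98.8% of adult ones lay in this family. In mir-276a and mir-276b, another near-identical pair, 99.95% of mature reads were listed as unique in each library.

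**Figure D4:**
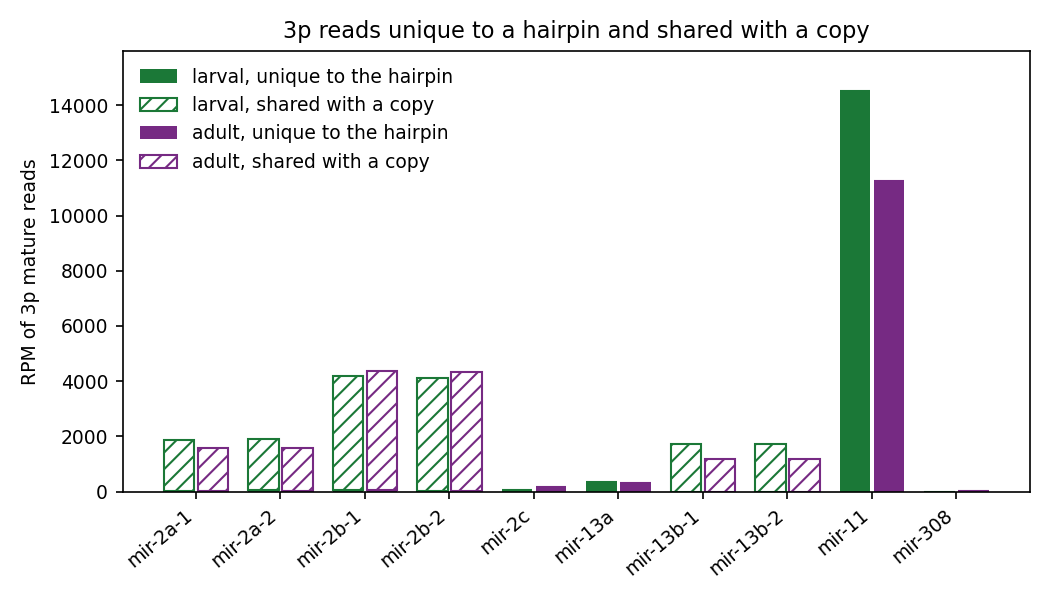
RPM of 3p mature reads of each hairpin as deposited, divided into reads unique to the hairpin (filled) and reads shared with a copy (hatched), in the larval and adult library (1 library each). The reads of mir-11, mir-2c and mir-13a are all unique, and those of the 6 hairpins with a copy are nearly all shared.

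What was unique gave different answers about the loci. For miR-2b, 94.2% of the unique 5p reads in the larval (92.0 to 95.9) and 99.2% in the adult library (97.7 to 99.8) came from mir-2b-2 in spi. Of the unique 3p reads, however, 86.4% (75.7 to 93.6; 57 of 66 reads) and 73.2% (65.2 to 80.3; 104 of 142) came from mir-2b-1 in Btk. The reads in neither arm were divided almost evenly, with 51.0% and 46.9% from mir-2b-1. The locus with the larger count therefore depended on the kind of read.

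For miR-2a the unique 5p reads came mostly from mir-2a-2, 72.5% (64.4 to 79.7) and 96.9% (92.8 to 99.0). So did the unique 3p reads, 78.4% (64.7 to 88.7; 40 of 51 reads) and 62.2% (46.5 to 76.2; 28 of 45), an adult interval that includes an even division. For miR-13b 18 of 20 larval and 7 of 8 adult unique 5p reads came from mir-13b-1 at the 3R cluster. Of its reads in neither arm, 58.2% (45.5 to 70.2) and 66.3% (59.1 to 73.0) did. The column of reads in neither arm has no unique counterpart, so shared reads among them cannot be told apart.

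Few 3p reads of the family equalled the annotated mature form. As deposited, 24.8% of them did in the larval (24.3 to 25.3) and 30.5% in the adult library (30.1 to 31.0), against 92.0% and 82.2% for the reads of the other hairpins together. Those pooled values weigh abundant hairpins most. Taken per hairpin, the median outside the family was 77.9% in the larval library (quartiles 60.1% and 92%; 57 hairpins) and 65.3% in the adult library (quartiles 35.97% and 91.1%; 71 hairpins). The other 3p reads differ from that form at an end or in a base. The tables do not say at which end, so whether the seed was shifted is not known.

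The members fell into groups by this measure. miR-2b had the lowest share with a measurable value. mir-2b-1 stood at 4.62% (3.95 to 5.38) and 3.68% (3.26 to 4.14), and mir-2b-2 at 4.71% and 3.70%. mir-2a-1 stood at 9.02% (7.64 to 10.6) and 6.0% (5.12 to 6.98), and mir-2a-2 at 8.85% and 6.01%. mir-2c had 0 exact 3p reads of 53 and of 249, which allows a share of up to 5.66% and 1.20%.

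The miR-13b hairpins and miR-11 had larger exact shares than the miR-2 hairpins in both libraries. For mir-13a this held in the adult library, while its larval interval overlapped those of the miR-2a hairpins. The shares of the miR-13 hairpins and miR-11 were higher in the adult library. mir-13b-1 had 49.9% (47.2 to 52.5) in the larval and 71.5% (69.4 to 73.5) in the adult library, and mir-13b-2 50.0% and 71.5%. The share of mir-13a was 11.7% (8.29 to 15.9) and 30.3% (26.5 to 34.4), that of mir-11 34.9% (34.1 to 35.8) and 50.0% (49.3 to 50.7). These 4 of the 9 members past the floor were called higher in the adult library, against 8.06% of 62 hairpins, with mir-13b-1 and mir-13b-2 sharing their reads. No member was called lower, against 16.1%. Their variant 3p reads were lower in the adult library, 2.57-fold for mir-13b-1 (2.30 to 2.88), 1.68-fold for mir-11 (1.63 to 1.73) and 1.41-fold for mir-13a (1.20 to 1.65). The exact reads were level for mir-13b-1, with a ratio of 0.981 (0.895 to 1.08), close to level for mir-11 at 1.11 (1.07 to 1.15), and higher in the adult library for mir-13a at 2.33 (1.61 to 3.46).

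**Figure D5:**
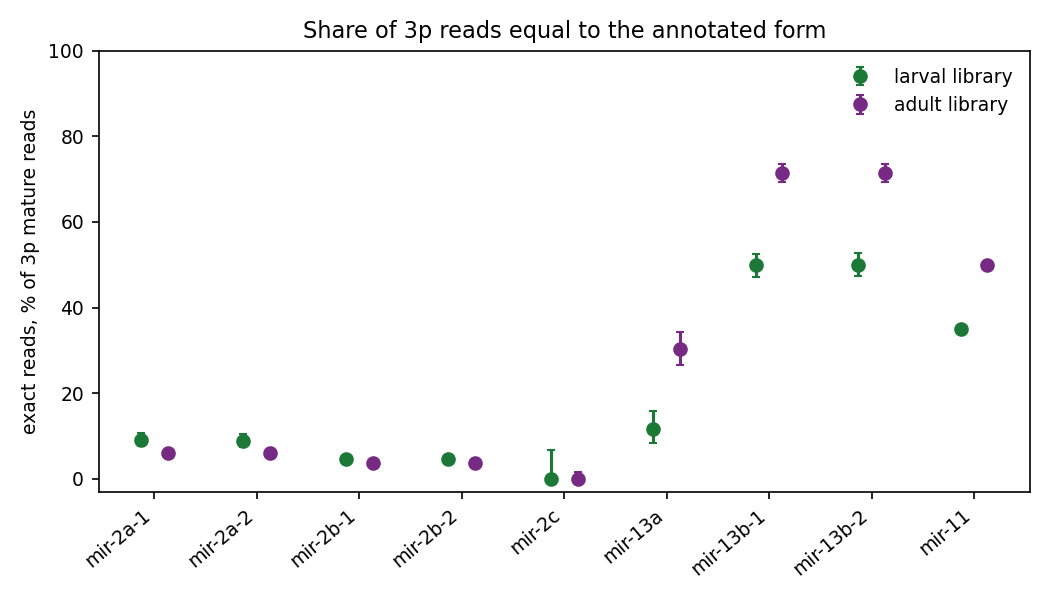
Share of 3p mature reads equal to the annotated form in the larval and adult library, with exact binomial 95% intervals (1 library each; mir-308 had no larval 3p reads and is not drawn). The miR-2 hairpins lie under 10% in both libraries, and mir-13a, mir-13b-1, mir-13b-2 and mir-11 lie higher in the adult than in the larval library.

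On the 5p arm the exact share varied widely between members. mir-11 had 95.4% exact 5p reads (94.8 to 96.0) in the larval and 93.0% (92.0 to 93.9) in the adult library, far above its 3p arm. mir-2b-2 had 87.3% (84.3 to 89.9) and 76.9% (72.3 to 81.0), the 1 member of 4 past the floor called lower in the adult library, against 22.8% of 57 hairpins, and 0 of 4 were called higher, against 3.51%. mir-2a-2 had 56.3% (46.2 to 66.1) and 38.3% (30.6 to 46.5), with intervals that overlap by a small margin. mir-2c had 28.2% (20.5 to 37.0) and 24.5% (17.6 to 32.5), so 2 of these 4 members lay far below mir-11. Counted with exact reads alone, the 3p share was 53.2% (52.3 to 54.1) and 80.5% (79.9 to 81.1).

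Of miRNAs outside these 10, the copies of miR-6 have the same seed and are known from the early embryo. Larval reads numbered 21, 19 and 20 and adult reads 3 for each copy, which adds 72.9 and 5.40 RPM to the seed family as deposited. In a list of other miRNAs linked to the control of cell death, which includes these copies, 3 of 8 hairpins were called higher in the adult library, miR-14, miR-278 and miR-263b, where 40.4% of all hairpins past the floor were. Another 4, miR-263a and the miR-6 copies, were called higher in the larval library, where 24.6% were. The miR-6 copies share nearly all of their reads and are not separate measurements. They passed the floor of 10 RPM through their larval reads alone, and miR-263b, with 0 larval and 20 adult reads, through its adult reads alone. The direction of their calls was thus built into their passing, and these counts only describe the list. bantam met neither call, and the median log2 ratio was -0.36, beside 0.47 for all hairpins past the floor. The hairpins outside the family nearest to it by log2 ratio, over the 2 libraries and with shared reads counted once, were mir-283 (ratio 0.736, 0.664 to 0.816), mir-980 (0.763, from 11 and 17 reads) and mir-988 (0.699, 0.546 to 0.898).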

How the data were processed

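Small RNA reads of 1 larval and 1 adult CNS library were analysed. The authors deposited trimmed read counts per annotated hairpin, per the file headers, by arm (5', 3', other), with columns for exact and for unique reads. The submitters' processing notes name CASAVA 1.8 and dm3. For aligner, counter and miRNA release: not given in the sources used here. A comparison table deposited by the authors holds RPM values, a signed fold change (treated as a score) and p-values of Kal's Z-test. Its RPM values equal counts per 1000000 hairpin reads.

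Ratios of RPM carry exact conditional binomial 95% intervals and shares Clopper-Pearson intervals (scipy 1.17.1), and levels exact Poisson ones. The interval code was tested on simulated data. With 1 library per stage no test was run. Kits without molecular identifiers do not tell copied molecules apart, so intervals cover counting error only. Log2 ratios used 0.5 added reads. Positions were looked up by name in Ensembl release 115 (BDGP6) and not combined with dm3. Alternatives were TMM (edgeR 4.0.16), DESeq2 1.42.0 size factors, a reduced total, other read classes and other treatments of shared reads. The reduced total lacked the 14 hairpins among the 10 most abundant of either library, mir-11 included. The lists of predicted new hairpins were not used. No mature sequence is printed, as none was read from the files used here. All 10 members were named whatever their values. The other names are the remaining hairpins of the seed, the neighbour of mir-11, other miRNAs with copies, cell death miRNAs, and the 3 nearest by ratio. The members and lists were chosen with earlier results of these data known, and the calls by arm, exact share and other reads were chosen after the values were seen.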

Additional observations from a re-analysis of the deposited data

How the results depend on the processing

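With 1 library per stage, counting error was the only error at hand, and members under about 50 reads (mir-308 and most 5p arms) give directions and little size. No paired analysis was possible because each stage had 1 library and no test was run. The family ratio, 0.733 with shared reads counted once, stayed below 1 in every alternative. It was 0.703 with TMM and 0.662 with DESeq2 size factors. It was 0.511 when the total lacked the 14 hairpins among the 10 most abundant of either library. mir-11 was 1 of those 14 and stayed in the family sum. The ratio was 0.716 with mature, 0.641 with unique and 0.690 with exact reads, and 0.770 as deposited. It was 0.729 with each shared read once over the family, and 0.940 without mir-11. Of the 18325 larval and 23387 adult unique reads, only 1409 and 1695 lay outside mir-11, so family values from unique reads are mostly those of mir-11. Members called higher in the adult library went from 1 to 0 with DESeq2 size factors, the total lacking those 14, mature reads and unique reads. Larval calls went from 0 to 3 with that total, 1 with mature reads, 4 with unique and 4 with exact reads. Calls of the hairpins outside the family were not counted under these settings, so these counts only describe the members. mir-2c reversed with exact reads, at a ratio of 0.493, when its exact reads were all on the 5p arm. The larval and adult 3p shares were 93.3% and 97.2% without mir-11, 53.2% and 80.5% with exact reads, and 67.7% and 84.2% with unique reads. The exact shares of 37.7% and 34.9% became 19.7% and 16.8% without mir-11 and 24.8% and 30.5% on the 3p arm, where the order of the libraries turned. Members with 5p reads higher in the larval library numbered 6 or 7 under every scaling run. Among them mir-2a-1, mir-2b-1 and mir-13b-1 passed the floor through larval reads alone, and the floor was the same in each scaling. A low ratio was thus built into their passing each time. Members with other reads higher in the adult library numbered 4, or 2 when scaled without those 14 hairpins. For both kinds of read, the other hairpins were not counted under the alternative scalings. Of 60 single-member ratios under 6 other settings, 20 moved by less than their counting interval, 39 by more, and 1 reversed a call. Only mir-2c, the 1 member with a call, could reverse one. The side of 1 was kept by 5 of 10 members with exact reads and by 8 or 9 of 10 under each other setting. With exact reads mir-13a went from 0.855 to 2.20 (1.54 to 3.22) and was the 1 member called higher in the adult library.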
